A study of Homo sapiens with 4 samples.

Results

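Translation initiation factor genes are the protein-coding genes whose symbol starts with EIF and a digit, without the EIF2AK kinases, in a RefSeq table of GRCh38.p14, the build that the files' hg38 names. The rule gave 52 genes of 20033 protein-coding genes. A gene was counted as accessible in a library when a listed peak came within 1000 bp of either end of its span, called a gene-end peak here. Members were thus chosen by name, while presence in a list, fold and rank are the readouts described below, and the family was picked with earlier results of these data known. The peaks come from ATAC-seq, in which Tn5 transposase cuts open chromatin, of 786-O cells, an established line of human clear cell renal cell carcinoma known to lack functional VHL. Cells received DMSO as vehicle, or 5 µM of a compound that the labels name ACSS2i, and were collected at 24 h. ACSS2 is the enzyme that makes acetyl-CoA from acetate. Each group holds 2 libraries, and nothing in the labels says that they came from separate cultures, so p-values measure only the spread between these libraries, which may be technical. All libraries are of this single line, and no untreated cells are included.

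Initiation factors bring the initiator tRNA, the small ribosomal subunit and the messenger RNA together and place the ribosome at the start codon. eIF2 carries the initiator tRNA and is recharged with GTP by eIF2B, eIF3 is the scaffold on the small subunit, and eIF4F binds the cap and unwinds the leader. Cells slow translation by phosphorylating eIF2α, through the EIF2AK kinases, or by letting the eIF4E binding proteins hold eIF4E when mTOR is low. Most of these genes are active in nearly every cell type.

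The lists held 16400 to 50294 peaks, with both ACSS2i lists (16400 and 22044) shorter than both DMSO lists (34696 and 50294), and depth in reads is unknown. List length therefore moves with treatment in every count below, and values at equal list length are given for the member counts and the gene lists. Promoter coverage and the quartile counts are given at full list length only. Of 9 markers fixed for the renal line, both DMSO libraries listed a gene-end peak for 7, and PAX2 and CA9 had none in any library. None of 4 immune and 4 endothelial markers had a gene-end peak in any of the 4 libraries. One member, EIF1AY, is Y-linked and is included in the counts but not described.

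The promoters shown next are the 200 bases before the start site of members on which the results turn. EIF2A and EIF2B4 had the strongest DMSO peaks of their complexes, EIF4A1 had the strongest member peak in ACSS2i replicate 2, and EIF4E encodes the cap-binding protein. EIF3F and EIF2D were listed in both DMSO libraries and ACSS2i replicate 2 but not in ACSS2i replicate 1, EIF3K had no start-site peak in either ACSS2i library, and EIF4E3 had no gene-end peak anywhere. Sequences are from RefSeq (GRCh38.p14), 5′ to 3′ on the gene's strand, and capitals mark the motifs described after them.
EIF2A (chr3:150546587-150546786, plus strand): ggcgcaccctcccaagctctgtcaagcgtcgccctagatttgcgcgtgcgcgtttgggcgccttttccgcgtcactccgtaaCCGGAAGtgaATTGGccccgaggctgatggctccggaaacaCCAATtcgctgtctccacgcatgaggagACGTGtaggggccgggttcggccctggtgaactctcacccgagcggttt
EIF2B4 (chr2:27370339-27370538, minus strand): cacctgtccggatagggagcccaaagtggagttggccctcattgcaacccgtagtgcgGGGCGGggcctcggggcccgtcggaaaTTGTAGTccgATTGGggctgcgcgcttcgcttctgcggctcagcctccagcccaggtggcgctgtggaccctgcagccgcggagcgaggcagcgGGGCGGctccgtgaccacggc
EIF4A1 (chr17:7572625-7572824, plus strand): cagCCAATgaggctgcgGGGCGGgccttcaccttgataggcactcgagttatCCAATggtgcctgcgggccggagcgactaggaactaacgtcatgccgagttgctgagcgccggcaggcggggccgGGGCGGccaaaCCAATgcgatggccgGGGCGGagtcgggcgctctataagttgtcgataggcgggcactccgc
EIF4E (chr4:98929134-98929333, minus strand): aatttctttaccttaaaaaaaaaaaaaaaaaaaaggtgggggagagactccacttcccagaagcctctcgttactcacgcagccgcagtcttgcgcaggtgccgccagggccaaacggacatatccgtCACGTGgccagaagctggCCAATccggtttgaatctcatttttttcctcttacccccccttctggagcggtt
EIF3F (chr11:7987137-7987336, plus strand): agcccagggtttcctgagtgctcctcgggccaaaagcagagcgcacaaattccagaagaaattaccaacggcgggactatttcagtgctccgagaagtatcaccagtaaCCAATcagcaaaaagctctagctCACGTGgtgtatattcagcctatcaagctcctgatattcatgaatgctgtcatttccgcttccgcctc
EIF2D (chr1:206612466-206612665, minus strand): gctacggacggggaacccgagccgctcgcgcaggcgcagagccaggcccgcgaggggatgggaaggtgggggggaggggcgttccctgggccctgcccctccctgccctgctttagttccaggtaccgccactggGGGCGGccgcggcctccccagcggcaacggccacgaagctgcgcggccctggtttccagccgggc
EIF3K (chr19:38618988-38619187, plus strand): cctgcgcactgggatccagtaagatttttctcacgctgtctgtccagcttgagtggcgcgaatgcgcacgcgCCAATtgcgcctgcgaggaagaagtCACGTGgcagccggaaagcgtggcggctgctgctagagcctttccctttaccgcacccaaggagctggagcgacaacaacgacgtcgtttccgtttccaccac
EIF4E3 (chr3:71754774-71754973, minus strand): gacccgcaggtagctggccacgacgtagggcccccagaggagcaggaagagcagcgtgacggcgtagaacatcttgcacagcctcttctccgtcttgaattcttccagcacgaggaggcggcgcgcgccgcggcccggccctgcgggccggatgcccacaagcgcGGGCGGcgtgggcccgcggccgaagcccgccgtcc

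Promoters of 44 members were in the RefSeq table, and those of EIF4EBP1, EIF3E, EIF3H, EIF3A, EIF3CL, EIF3G, EIF2S2 and EIF3L were not. Each 200-base window was searched on both strands for 9 short motifs. The E-box CACGTG, the core bound by MYC and MAX, was in 11 of 44 member promoters (25.0%), against 6.82% of 15842 protein-coding promoters and 7.79% of the 7608 that a peak covered in both DMSO libraries. The 11 were EIF1B, EIF2B3, EIF3F, EIF3K, EIF4A3, EIF4B, EIF4E, EIF4EBP3, EIF4G1, EIF4H and EIF5A2. In the promoters printed above it begins at position -72 of EIF4E, -68 of EIF3F and -103 of EIF3K, counted from the start site with negative values upstream. The E-box was added to the search after these sequences were seen, and these shares carry no test.

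The shorter ACGTG, the core of the hypoxia response element and also part of each E-box, was in 16 members (36.4%) against 17.6% of all promoters. The SP/KLF box GGGCGG was the most frequent, in 28 members (63.6%, against 53.3%), and the NF-Y box CCAAT was in 15 (34.1%, against 30.5%). EIF4A1 held 3 copies of each in its window. The ETS core CCGGAAG was in 7 members (15.9%, against 10.7%), among them EIF2A. The remaining motifs were rare: GCATGCG of NRF1 in 2 (4.55%, against 4.18%), ATGGCGG of YY1 in 1 (2.27%, against 2.51%), ACTACAA of ZNF143 in 2 (4.55%, against 2.39%) and TGACGTC of the cAMP response element in 2 (4.55%, against 3.85%). Among the 7608 promoters covered in both DMSO libraries the share was 68.4% for GGGCGG, 35.1% for CCAAT, 18.3% for CCGGAAG and 21.1% for ACGTG. Of these only ACGTG was more frequent in members than in covered promoters. Each of the 11 members with an E-box is among the 16 with ACGTG, so its share is not a result separate from that of the E-box. A match is a string of letters and not a bound site. E-boxes were found in 6 of 25 described members with a promoter in the table that had gene-end peaks in all 4 libraries, in 3 of 11 that lacked one in ACSS2i replicate 1, in EIF3K, the only member that lacked one in ACSS2i replicate 2 alone, and in 1 of 6 with none, EIF4EBP3.

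A peak covered part of the 200-base window in 37 and 38 of 44 members in the DMSO libraries and in 23 and 31 in the ACSS2i libraries. Over all 15842 promoters the shares were 48.3%, 56.7%, 27.0% and 36.1% in the same order, so member promoters were covered more often than promoters at large in each of the 4 libraries. The median GC content of the windows was 64.5% for members and 63.5% for all promoters. It ranged among members from 40.0% (EIF5AL1) to 80.5% (EIF4E1B).

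Initiation factor genes were accessible at a gene end far more often than protein-coding genes at large, and no member that was listed in both DMSO libraries was missing from both ACSS2i libraries. Listing in both DMSO libraries was at least as frequent among cytosolic ribosomal protein genes (76 of 81) and proteasome subunit genes (35 of 39). A gene-end peak was found for 45 of 52 members in each DMSO library, against 52.6% and 60.0% of all genes. It was found for 32 members in ACSS2i replicate 1 (32.5% of all genes) and for 44 in ACSS2i replicate 2 (40.7% of all genes). The same 45 members were listed in both DMSO libraries (86.5%, against 52.3% of all genes). The means were 45 ± 0 in DMSO and 38 ± 8.49 in ACSS2i (SD, n = 2), and the ACSS2i libraries differed from each other by more than their mean did from DMSO (p = 0.333 by a two-sided exact permutation test, which cannot go lower with 2 against 2). With every list reduced to its 16400 strongest peaks, 37 and 39 members had a gene-end peak in DMSO against 32 and 37 in ACSS2i, so the groups met at 37 (exact permutation p = 0.667). The shares of all genes were then 34.8% and 39.0% in DMSO, and 32.5% and 34.5% in ACSS2i.

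Of the 45 members in both DMSO libraries, 31 had a gene-end peak in all 4 libraries (68.9%, against 58.0% of the 10468 genes in both DMSO libraries), 13 lacked it in ACSS2i replicate 1 alone (28.9%, against 19.2%), and EIF3K lacked it in ACSS2i replicate 2 alone (against 3.92%). None was absent from both, where 18.9% of all genes were and 11.6% of genes of like DMSO strength. A count of 0 of 45 allows a share of up to 6.67% (3 counts, counting error only, with genes of 1 library not independent). This limit leaves out the spread between libraries, so it is no test of the treatment. The other 7 members had no gene-end peak in the 4 lists (13.5% of 52, against 39.6% of all genes), so none was gained, as with all genes (0%). They were EIF2S3B, EIF3C, EIF3CL, EIF4E3, EIF4EBP3, EIF4ENIF1 and EIF5AL1. The count of 0 rests on ACSS2i replicate 2, in which 44 of the 45 were listed (97.8%, against 77.2% of all genes), while ACSS2i replicate 1 listed 32 (71.1%, against 61.9%). Without replicate 2, 13 of 45 were absent from ACSS2i (28.9%, against 38.1%), and without replicate 1 only EIF3K was (2.22%, against 22.8%). Without DMSO replicate 1 or DMSO replicate 2 the count stayed at 0 (against 28.5% and 19.4%). At the stricter threshold of −log10 q of at least 5, 9 of 45 were absent from both ACSS2i libraries (20.0%, against 29.8%): EIF4G3, EIF2D, EIF2B1, EIF3K, EIF3L, EIF4A2, EIF3B, EIF3E and EIF1AX. At equal list length 34 members were in both DMSO libraries, 25 of them in all 4 (73.5%, against 79.5% of all genes) and 0 absent from both ACSS2i libraries (against 5.27%). By the same counting error, 0 of 34 allows up to 8.82%, which is above the share of all genes. The count at equal list length thus does not set members apart from all genes, and it too is no test of the treatment. None of the 10 members in neither DMSO list was gained there (against 0.852%).

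**Figure D1:**
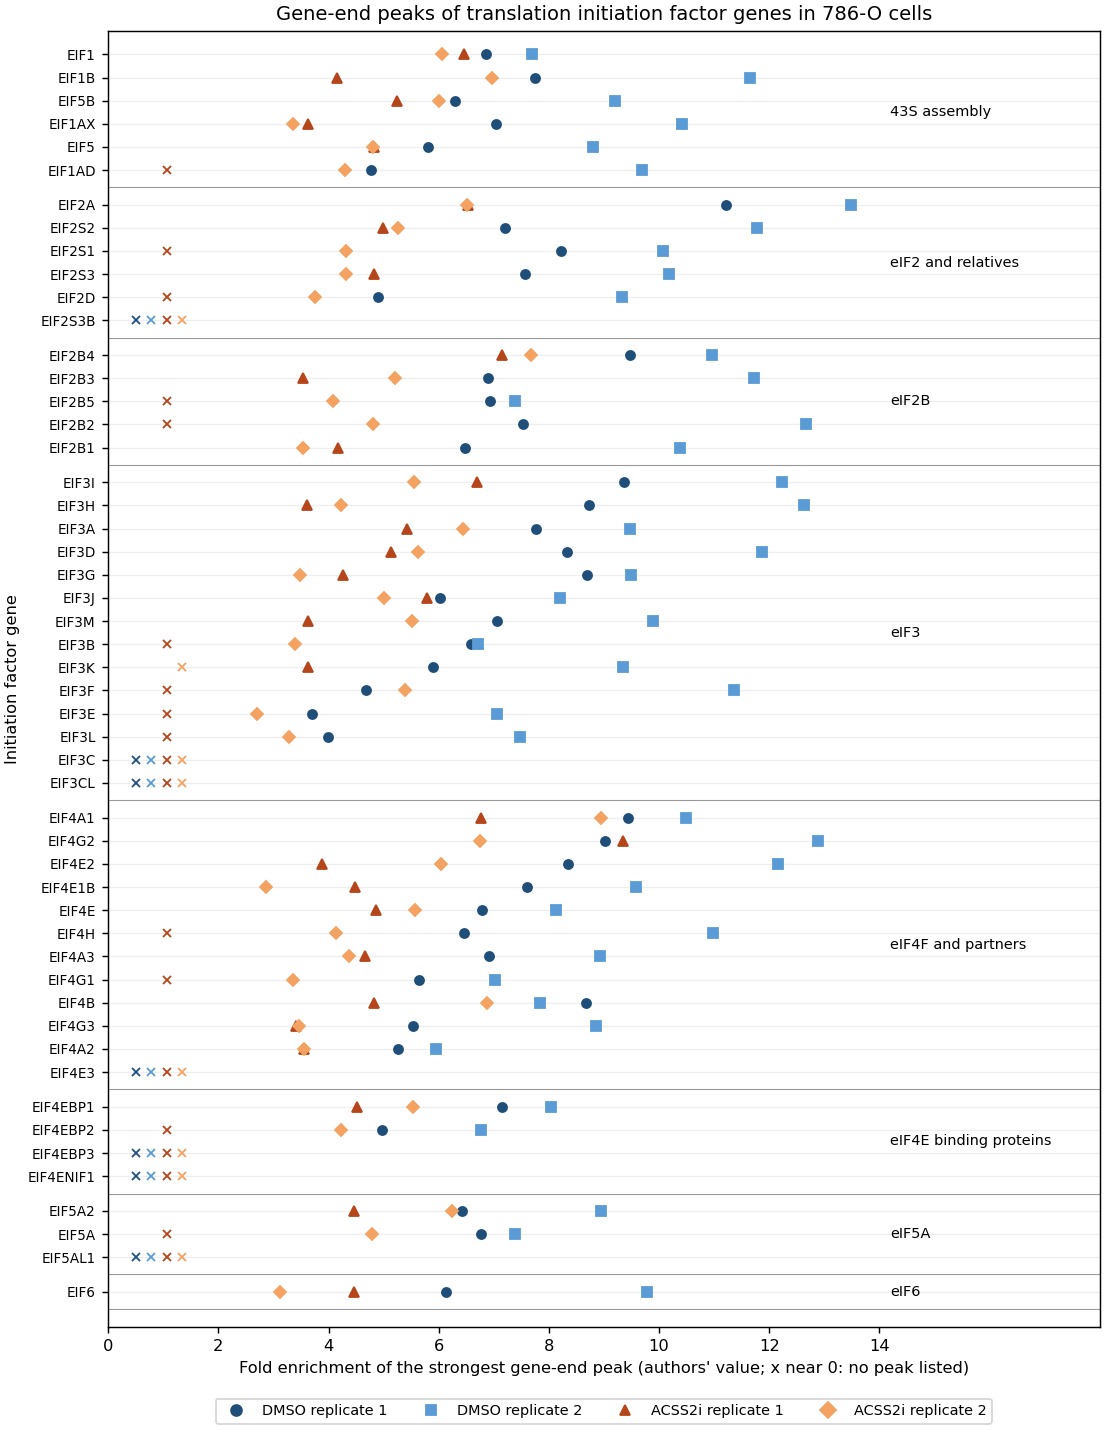
Fold enrichment (x axis, the authors' value for the strongest gene-end peak) of 51 members (rows, by complex) in 2 DMSO and 2 ACSS2i libraries, with a cross near 0 where no peak was listed. The 13 members with a cross for ACSS2i replicate 1 alone are found in every complex but eIF6, and 7 members have crosses for all 4 libraries.

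Members listed throughout tended to have stronger DMSO peaks than those that were not, with overlap. The lower of the DMSO percentiles of −log10 q ran from 46.97 (EIF5) to 98.0 (EIF2A), with a median of 79.4, for the 30 described members in all 4 libraries. It ran from 24.7 (EIF3L) to 76.4 (EIF4H), with a median of 63.1, for the 13 absent from ACSS2i replicate 1. Genes in both DMSO libraries were divided into quartiles by this lower percentile, the percentile being the standing of a peak within its own list. The upper limits of the lower quartiles were 43.03, 65.4 and 82.9. Members numbered 5, 11, 17 and 12 from the weakest to the strongest quartile, so they leaned to the stronger side. All 12 in the strongest quartile were in all 4 libraries (against 96.4% of genes there), 12 of 17 in the third (against 78.9%), 7 of 11 in the second (against 45.2%) and 0 of 5 in the weakest (against 11.7%). From the weakest to the strongest quartile, 54.5%, 17.3%, 3.14% and 0.611% of genes were absent from both ACSS2i libraries, where each member count was 0. ACSS2i replicate 1 listed 0, 8, 12 and 12 members (18.2%, 51.5%, 81.4% and 96.7% of genes), and replicate 2 listed 5, 10, 17 and 12 (38.9%, 76.4%, 94.3% and 99.1%).

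Genes of the same quartiles, weighted as the members fall into them, would be missing from both ACSS2i libraries in 11.6% of cases, or 5.23 of 45, where the members gave 0. They would be in all 4 libraries in 67.8% of cases, or 30.5 of 45, where the members gave 31. For ACSS2i replicate 1 the weighted share was 71.1%, or 32.0 of 45, and 32 members were listed. For ACSS2i replicate 2 it was 85.1%, or 38.3 of 45, and 44 were listed. Presence in ACSS2i replicate 1 and in all 4 libraries was thus close to that of genes of the same quartiles, and the members' count stood above it in ACSS2i replicate 2. The 5 weakest members, EIF1AD, EIF2D, EIF3E, EIF3F and EIF3L, were each absent from ACSS2i replicate 1 and present in replicate 2, where 38.9% of genes in their quartile were listed. That quartile spans percentiles 0.0519 to 43.03, while these members lay between 24.7 (EIF3L) and 40.1 (EIF2D). It thus includes genes weaker than any of these members, so the weighted shares match strength only coarsely.

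**Figure D2:**
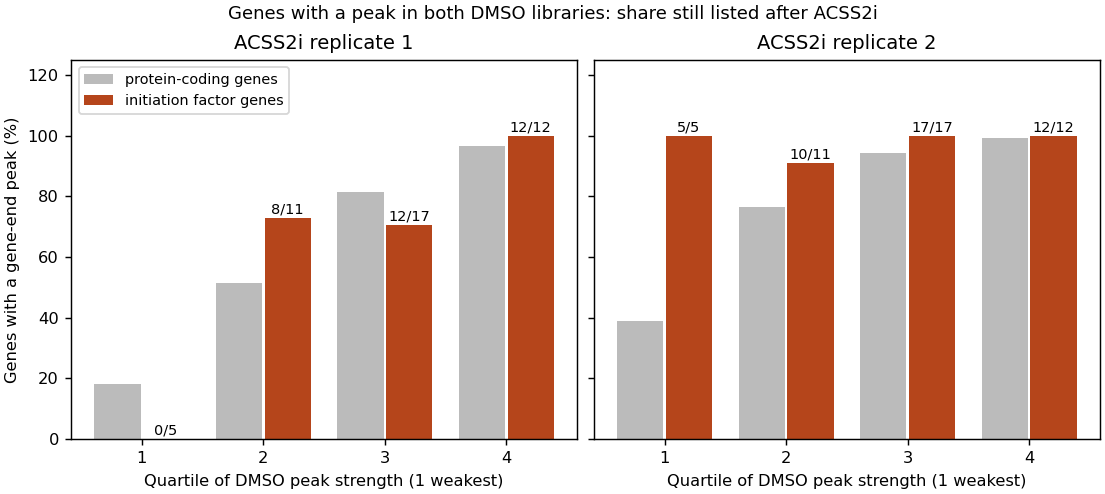
Share of genes with a gene-end peak in ACSS2i replicate 1 (left) and 2 (right), by quartile of DMSO strength (x axis, 1 weakest), for genes in both DMSO libraries; grey bars are all such protein-coding genes and red bars the initiation factor genes, with their counts. In replicate 2 the weakest quartile holds 5 of 5 members beside 38.9% of genes, and in replicate 1 it holds 0 of 5 beside 18.2%.

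The factors that assemble on the small subunit and check the start codon kept 6 of 7 genes in all 4 libraries. EIF1 (chromosome 17, 41688885 to 41692668), whose product guards start codon choice, had folds of 6.86 and 7.70 in DMSO against 6.46 and 6.05 in ACSS2i. Its ACSS2i folds were just below its DMSO folds, and by its lower DMSO percentile (86.4) it was the strongest of those described here. EIF5B (chromosome 2, 99337389 to 99401326), the GTPase that joins the large subunit, had folds of 6.29 and 9.21 in DMSO against 5.24 and 6.002 in ACSS2i. EIF5, which triggers GTP hydrolysis by eIF2, had 5.80 and 8.81 in DMSO against 4.82 and 4.80.

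EIF1AX (chromosome X, 20124525 to 20141838), which promotes scanning together with eIF1, had −log10 q of 13.6 and 33.6 in DMSO against 2.56 and 2.72 in ACSS2i. Both ACSS2i values lay just above 2, the lower limit of the lists. EIF1B, a close relative of EIF1, had folds of 7.74 and 11.7 in DMSO against 4.16 and 6.96 in ACSS2i. EIF1AD, which carries a domain like that of eIF1A, was the weakest of the group, with folds of 4.78 and 9.69 in DMSO, none listed in ACSS2i replicate 1 and 4.30 in replicate 2. The EIF1AD peak also lay within 1000 bp of an end of BANF1, and the EIF5B peak within 1000 bp of an end of TXNDC9, and may belong to those genes. The same holds for EIF2S1 with ATP6V1D, EIF2B1 with GTF2H3, EIF3B with SNX8, EIF3L with ANKRD54, EIF4E2 with TIGD1 and the start-site peak of EIF4A1 with SENP3, whose values follow, and for the DMSO replicate 1 peak of EIF3K with MAP4K1.

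Of 6 genes of eIF2 and its relatives, 5 were listed in both DMSO libraries and 3 in all 4. At equal list length these were 4 and 3. EIF2A (chromosome 3, 150546787 to 150586016), a separate factor able to bring initiator tRNA to the ribosome, had the strongest DMSO peak of all members described. The DMSO libraries gave −log10 q of 57.2 and 91.1 and the ACSS2i libraries 13.9 and 17.5, with folds of 11.2 and 13.5 against 6.54 and 6.51. The groups did not overlap, but 84.4% of genes in all 4 libraries also had lower folds in both ACSS2i libraries. The median −log10 q over all peaks was 10.0 and 16.6 in DMSO against 6.20 and 7.15 in ACSS2i. EIF2A stood at percentiles 99.7, 98.0, 86.9 and 88.4 of the 4 lists. The same peak lay within 1000 bp of an end of SERP1.

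The genes of the eIF2 trimer differed among themselves. EIF2S1 (chromosome 14, 67360328 to 67386516), which encodes the α subunit phosphorylated under stress, had folds of 8.22 and 10.1 in DMSO, no peak in ACSS2i replicate 1 and 4.32 in replicate 2. EIF2S2, for the β subunit, had 7.21 and 11.8 in DMSO against 5.00 and 5.26 in ACSS2i. EIF2S3, for the γ subunit, had 7.57 and 10.2 against 4.82 and 4.32. EIF2D, which encodes another factor that can deliver tRNA, was the weakest with a peak, at 4.90 and 9.32 in DMSO, none in ACSS2i replicate 1 and 3.74 in replicate 2. EIF2S3B, a relative of EIF2S3, had none.

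All 5 eIF2B genes were accessible in both DMSO libraries and 3 in all 4. At equal list length these were 5 and 2. EIF2B4 (chromosome 2, 27364352 to 27370338), for the δ subunit, had folds of 9.48 and 10.97 in DMSO against 7.15 and 7.67 in ACSS2i. It ranked at percentiles 98.4, 97.7, 93.1 and 98.5 of the 4 lists. Its peak lay within 1000 bp of an end of SNX17 as well. EIF2B3, for a subunit of the catalytic part, had 6.90 and 11.7 in DMSO against 3.53 and 5.21 in ACSS2i, and EIF2B1, the weakest by DMSO percentile, 6.48 and 10.4 against 4.17 and 3.53. EIF2B2 and EIF2B5, whose product holds the exchange activity, lacked a peak in ACSS2i replicate 1 and had folds of 4.80 and 4.08 in replicate 2, after 7.53 and 12.7 and 6.94 and 7.38 in DMSO.

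The eIF3 genes, for the scaffold of the small subunit, are the most numerous. Both DMSO lists held 12 of the 14, and all 4 lists held 7. At equal list length both counts were 7. EIF3H (chromosome 8, 116642130 to 116766374) had folds of 8.73 and 12.6 in DMSO against 3.61 and 4.22 in ACSS2i. Its percentile was 95.6 and 94.1 in the DMSO lists and 24.6 and 51.0 in the ACSS2i lists, and an end of UTP23 lay within reach of the same peak. EIF3A, for the largest scaffold subunit, had folds of 7.77 and 9.48 against 5.42 and 6.44, and EIF3D, whose product can bind the cap of some messages, 8.33 and 11.9 against 5.13 and 5.63. EIF3G had 8.69 and 9.49 against 4.26 and 3.49, and EIF3J, for a loosely attached subunit, 6.03 and 8.21 against 5.78 and 5.00. EIF3M had 7.06 and 9.88 in DMSO against 3.62 and 5.52 in ACSS2i.

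EIF3B, EIF3E, EIF3F and EIF3L were the eIF3 genes with no peak in ACSS2i replicate 1 and one in replicate 2. EIF3L was at the lowest DMSO percentile of all members described (24.7, at a fold of 3.99), and EIF3E had the lowest ACSS2i replicate 2 fold of those described (2.70, after 3.70 and 7.06 in DMSO). EIF3F had folds of 4.68 and 11.4 in DMSO and 5.38 in ACSS2i replicate 2, so its ACSS2i value lay between the DMSO values. EIF3B had 6.59 and 6.71 in DMSO and 3.398 in ACSS2i replicate 2. EIF3C and EIF3CL, near-identical copies on chromosome 16, had none, and reads from such copies can be hard to place, so their absence is uncertain.

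EIF3K (chromosome 19, 38619188 to 38636954) changed ends between libraries. Its peak in DMSO replicate 1 lay at the start site (summit at -130 bp), while the strongest peaks of DMSO replicate 2 and ACSS2i replicate 1 lay at the opposite end, 17971 and 17799 bp from the start. At the start site alone DMSO gave folds of 5.90 and 8.72, and neither ACSS2i library listed a peak. It was the only member with that pattern among 38 with a start-site peak in both DMSO libraries, where 17.8% of 8885 genes had it.

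Of 12 genes of eIF4F and its partners, both DMSO lists held 11 and all 4 lists held 9. At equal list length these were 10 and 7. EIF4A1 (chromosome 17, 7572825 to 7579006), for the main cap-dependent helicase, had folds of 9.43 and 10.5 in DMSO against 6.76 and 8.95 in ACSS2i. It held percentiles of 97.4, 93.7, 87.0 and 99.0. In ACSS2i replicate 1 its strongest peak lay beyond the far end of the gene, near CD68, and the peak at its start had a fold of 7.12. EIF4A2, the paralogous helicase, was at the other extreme of this group, with 5.26 and 5.94 against 3.55 and 3.55. EIF4A3, whose product belongs to the exon junction complex, had 6.91 and 8.93 against 4.66 and 4.37.

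EIF4G2 (chromosome 11, 10797046 to 10808926), which encodes a scaffold that lacks the eIF4E binding region, was the only described member in all 4 libraries whose folds overlapped between groups, at 9.02 and 12.9 in DMSO against 9.34 and 6.75 in ACSS2i. Lower folds in both ACSS2i libraries than in both DMSO libraries were found for 29 of 31 members (93.5%, against 84.4% of genes in all 4 libraries), and higher ones for 0 (against 0.165%). A fold is relative to background within 1 library, so these are values side by side, with no test.

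EIF4E (chromosome 4, 98879276 to 98929133), for the cap-binding protein itself, had folds of 6.79 and 8.13 in DMSO against 4.86 and 5.57 in ACSS2i. EIF4E2, for a cap-binding relative that can repress translation, had 8.35 and 12.2 against 3.89 and 6.04. EIF4G3, for another scaffold, had 5.53 and 8.85 against 3.42 and 3.46, with −log10 q of 2.64 and 3.09 in ACSS2i, close to the limit of 2. EIF4B and EIF4H encode cofactors of the helicase. EIF4B had 8.67 and 7.84 in DMSO against 4.82 and 6.88 in ACSS2i, and was the only described member whose fold was higher in DMSO replicate 1 than in DMSO replicate 2. EIF4H had 6.45 and 10.97 in DMSO, none in ACSS2i replicate 1 and 4.14 in replicate 2. EIF4E3, for a divergent cap-binding relative, had none.

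The main scaffold gene EIF4G1 (chromosome 3, 184314606 to 184335358) had peaks at both ends. By its strongest gene-end peak it had folds of 5.65 and 7.02 in DMSO, none in ACSS2i replicate 1 and 3.35 in replicate 2, but those of DMSO replicate 1 and ACSS2i replicate 2 lay at its far end. At any of its 3 start sites DMSO gave 5.31 and 7.32, ACSS2i replicate 1 gave 3.92 and replicate 2 none. The library lacking a peak thus depended on which positions were counted.

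Among genes of eIF4E binding proteins, EIF4EBP1 (chromosome 8, 38030534 to 38060365), a major target of mTOR, had folds of 7.15 and 8.04 in DMSO against 4.52 and 5.53 in ACSS2i. EIF4EBP2 had 4.97 and 6.77 in DMSO, none in ACSS2i replicate 1 and 4.22 in replicate 2. EIF4EBP3 had no gene-end peak. EIF4ENIF1, for a protein that carries eIF4E into the nucleus, had none near the ends of its span, with the nearest peak 2551 to 2898 bp away. Its annotated start lies inside the span, and there it had folds of 7.29 and 8.70 in DMSO against 3.37 and 3.17 in ACSS2i.

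EIF5A (chromosome 17, 7306999 to 7312463), whose product carries hypusine and helps elongation, had folds of 6.77 and 7.38 in DMSO, none in ACSS2i replicate 1 and 4.80 in replicate 2. Its paralog EIF5A2 had 6.42 and 8.94 in DMSO against 4.46 and 6.24 in ACSS2i, and the intronless EIF5AL1 had no gene-end peak. EIF6 (chromosome 20, 35278906 to 35284772), for a factor that holds the large subunit apart until joining, had folds of 6.14 and 9.79 in DMSO against 4.47 and 3.12 in ACSS2i. All 4 EIF6 peaks lay at the far end of the gene, 6724 to 6776 bp from a start site and within 1000 bp of ends of MMP24 and MMP24OS. At its start sites DMSO gave 5.62 and 7.88, ACSS2i replicate 1 gave 3.14 and replicate 2 none.

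EIF3I and EIF4E1B were the other members whose strongest peak lay away from the start in all 4 libraries. The EIF3I peak sat 13864 to 13888 bp downstream of its start, at the far end of the gene, with folds of 9.36 and 12.2 in DMSO against 6.69 and 5.54 in ACSS2i. At the start of EIF3I, DMSO gave 5.96 and 9.41, ACSS2i replicate 1 none and replicate 2 gave 3.12. The EIF4E1B peak (folds 7.60 and 9.58, then 4.49 and 2.86) lay near an end of TSPAN17, and no peak was listed at the start of EIF4E1B.

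Where the strongest peak was near the gene's own start, its summit was mostly just upstream. It lay within 1000 bp of an annotated start in 34 of 38 members in each DMSO library, and in 21 of 27 and 33 of 37 in the ACSS2i libraries. The shares were 89.5%, 89.5%, 77.8% and 89.2%, against 86.5%, 86.3%, 87.4% and 88.3% of all genes with a gene-end peak and a start site. Of these summits 29, 28, 16 and 30 lay upstream. Their median position was -144.5 and -114 bp in DMSO, then -128 and -140 bp in ACSS2i (negative upstream), against -58, -45, -74 and -61 bp for all genes. The share of upstream summits over all genes was not counted. Since the medians of all genes were upstream as well, lying upstream is not particular to members. A peak reached the end of another protein-coding gene for 14, 13, 9 and 13 members, which is 31.1%, 28.9%, 28.1% and 29.5% of those with a peak, against 33.4%, 31.6%, 35.6% and 34.4% of all genes.

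**Figure D3:**
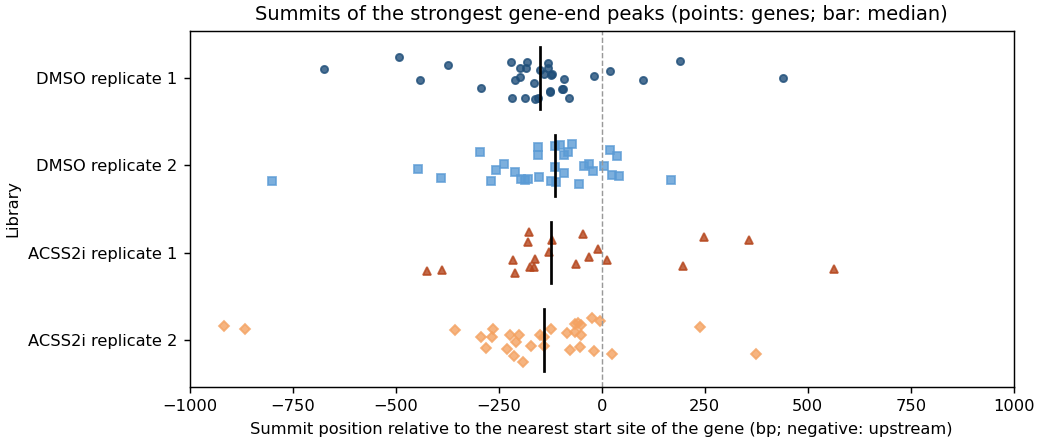
Position of the summit of the strongest gene-end peak relative to the nearest start site of its gene (x axis, bp, negative upstream) in each library, for described members whose summit lay within 1000 bp; points are genes, spread vertically for legibility, and black bars are medians. Most points of each library lie left of the dashed line at the start site.

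Member peaks had a larger median width than those of all genes in DMSO and a smaller one in ACSS2i. The median width was 944 and 1469 bp in DMSO and 446 and 590 bp in ACSS2i, against 865, 1078, 534 and 669 bp for all genes with a gene-end peak. These medians cover the genes listed in each library, which differ between libraries, so the reversal is not shown to be a change in member peaks. Of 30 described members in all 4 libraries, 27 had a narrower peak in both ACSS2i libraries than in both DMSO libraries, and EIF1AX, EIF2A and EIF3J did not. Over all 31 members the share was 87.1%, near the 81.9% of the 6074 genes in all 4 libraries. The width of EIF2A was 1320 and 1591 bp in DMSO and 713 and 1761 bp in ACSS2i. The median fold of members was 6.90 and 9.58 in DMSO, then 4.59 and 4.80 in ACSS2i, beside 6.21, 8.91, 4.89 and 4.65 for all genes.

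Within their own lists, members stood at a median percentile of 74.2 and 81.7 in DMSO, then 43.6 and 55.8 in ACSS2i, beside 66.7, 77.2, 56.0 and 60.4 for all genes with a gene-end peak. The means were 78.0 ± 5.35 and 49.7 ± 8.63 (SD, n = 2 libraries; exact permutation p = 0.333). These lists differ in length, so the percentiles give standing within a list and not a change. At equal list length the means were 51.3 ± 1.66 and 51.0 ± 10.5 (exact permutation p = 1).

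Ranking only the 6074 genes listed in all 4 libraries gives each library the same number of genes. The median percentile of the members among them was 47.8 and 41.4 in DMSO against 35.0 and 55.4 in ACSS2i, so the ACSS2i libraries lay on either side of the DMSO libraries. Of the 31 members, 7 ranked lower in both ACSS2i libraries than in both DMSO libraries (22.6%, against 16.5% of the 6074 genes) and 4 ranked higher (12.9%, against 19.0%). With 2 libraries a group these shares carry no test.

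EIF3H had the largest difference in this ranking among described members, from percentiles of 87.7 and 72.8 in DMSO to 16.1 and 27.1 in ACSS2i. EIF4E1B, EIF3G, EIF1AX, EIF2A, EIF4G3 and EIF4A3 also ranked lower in both ACSS2i libraries, with EIF4A3 differing least, at 36.4 and 35.6 against 35.0 and 31.6. EIF1 had the largest difference in the other direction, from 72.4 and 42.9 to 86.6 and 82.8. EIF3J ranked at 37.4 and 37.2 in DMSO against 72.4 and 53.3, EIF5 at 6.57 and 13.4 against 31.5 and 23.6, and EIF5B at 46.6 and 55.6 against 58.0 and 75.7. EIF3H and EIF3J, genes of the same complex, thus differed in opposite directions. Some weaker peaks of both ACSS2i libraries were tied. In ACSS2i replicate 1, EIF5, EIF2S3 and EIF4B shared a fold of 4.82 and −log10 q of 5.41, and EIF1AX and EIF3M shared 3.62 and 2.56. In ACSS2i replicate 2, EIF5 and EIF2B2 shared 4.80 and 6.80, and EIF2S1 and EIF2S3 shared 4.32 and 5.34. Percentiles of tied genes in this ranking are averages over them, and EIF5 had tied values in both ACSS2i libraries.

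**Figure D4:**
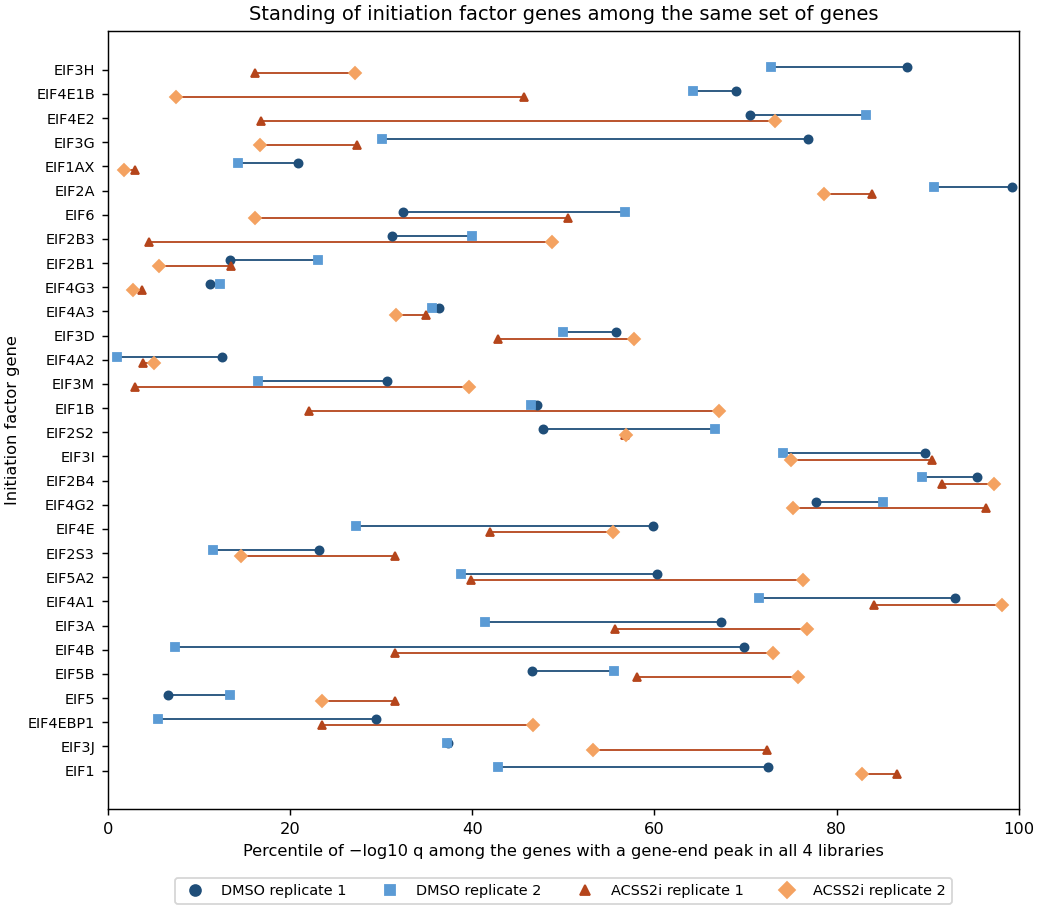
Percentile of −log10 q among the 6074 genes listed in all 4 libraries (x axis) for the 30 described members (rows, by mean ACSS2i minus mean DMSO, lowest at the top); blue circles and squares are the 2 DMSO libraries and red triangles and orange diamonds the 2 ACSS2i libraries. EIF3H at the top has both ACSS2i values left of both DMSO values, EIF1 at the bottom has them right, and 19 members overlap.

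Other genes of the pathway, from lists written by role, were absent from both ACSS2i libraries in some cases. Of all genes in both DMSO libraries, 58.0% were in all 4 and 18.9% in neither ACSS2i library. Of 18 genes of mTOR and cap-dependent control in both DMSO libraries, 9 were in all 4 and 6 in neither ACSS2i library: PABPC4, MKNK1, RPS6KB2, MLST8, DHX29 and LARP1. MKNK1, a kinase of eIF4E, had DMSO folds of 6.98 and 8.14, and LARP1, a repressor of messages for the translation machinery, had 7.52 and 7.42. Of 9 integrated stress response genes, 7 were in all 4 and EIF2AK2, which encodes the kinase PKR, was in neither ACSS2i library (DMSO folds 3.84 and 7.68). Of 10 elongation genes, 6 were in all 4 and EEF2 and EEF1A2 in neither, and of 6 termination and recycling genes 3 were in all 4 and MCTS1 in neither. The shares in neither were 33.3%, 11.1%, 20.0% and 16.7% in this order, of which only the first was well above that of all genes. At equal list length 1 of 9, 0 of 5, 0 of 7 and 0 of 3 were in neither, counts too small to set against 5.27% of all genes. The DMSO folds were 3.23 and 6.54 for PABPC4, 3.10 and 6.22 for RPS6KB2, 6.49 and 5.67 for MLST8 and 7.51 and 9.81 for DHX29. They were 3.79 and 3.33 for EEF2, which encodes the translocation factor, 4.29 and 5.44 for EEF1A2 and 3.84 and 7.05 for MCTS1. In DMSO replicate 1, −log10 q was 2.35 for RPS6KB2, 3.15 for PABPC4, 3.34 for MCTS1 and 4.27 for EIF2AK2, near the list limit of 2. In DMSO replicate 2 these genes had 11.5 (MCTS1) to 22.6 (EIF2AK2). The other genes in neither ACSS2i library had at least 8.07 (EEF2) in DMSO replicate 1.

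The most similar gene groups were also compared by count. Cytosolic ribosomal protein genes were in both DMSO libraries for 76 of 81, in all 4 for 41 (53.9%) and in neither ACSS2i library for 14 (18.4%). Proteasome subunit genes were in both DMSO libraries for 35 of 39, in all 4 for 20 (57.1%) and in neither ACSS2i library for 9 (25.7%). The median lower DMSO percentile was 64.6 for the ribosomal protein genes, 75.2 for the proteasome genes, 70.8 for the initiation factor genes and 65.4 for all genes. At equal list length 3 of 42 ribosomal protein genes (7.14%) and 1 of 22 proteasome genes (4.55%) were in neither ACSS2i library, beside 0 of 34 initiation factor genes. In all 4 libraries were then 34 ribosomal protein genes (81.0%), 16 proteasome genes (72.7%) and 25 initiation factor genes (73.5%), against 79.5% of all genes. Initiation factor genes were thus not kept more often than these groups once the lists were of equal length. These differences were not tested.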

How the data were processed

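Peak lists from ATAC-seq were grouped by treatment from the titles, 2 libraries each. The submitters' processing notes name the build hg38, MACS2 2.1.2, Bowtie2, Trimmomatic 0.38, bcl2fastq 2.17, Picard 2.18.26, SAMtools 1.9, bedtools, deepTools 3.5.0 and DiffBind, with no roles. Caller options, any Tn5 shift, the filter on the lists and read depth are unknown here. The lists have no header and the layout of a MACS2 narrowPeak file, from which the units were read. In it, the authors deposited a score that equals 10 times −log10 q, as a whole number, which went unused. The fold is a ratio deposited by the authors, of summit signal over local background. Of the deposited −log10 values, p went unused and q was at least 2 throughout. The deposited summit offset gave summit positions.

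Rows with the same interval became 1 peak, taken at its strongest summit (pandas 2.3.3, numpy 2.4.6, Python 3.11.15). A gene took the peak of highest −log10 q within 1000 bp of either end, over 20033 genes on chromosomes 1 to 22, X and Y. Among described members the farthest peak inside the window was 776 bp from an end, and the nearest outside 2551 bp. Group means over libraries were tested by exact permutation, two-sided (scipy 1.17.1). Gene calls are counts beside those of all genes, members included. Start sites and promoters came from RefSeq tables of GRCh38.p14. The calling step was tested on simulated peaks. Members, lists and complexes were chosen with earlier results of these data known. By rule, full values were given for members lost or gained, the strongest and weakest in DMSO of each complex and other pathway genes absent from both ACSS2i libraries, and the remaining members were added to show each role. Alternatives covered the window, summits, threshold, list length, start sites, ranking, the replicate number and each library left out.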

Additional observations from a re-analysis of the deposited data

How the results depend on the processing

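The difference between groups in the number of members with a gene-end peak (7, DMSO minus ACSS2i) was 3.5 to 17.5 over the other windows, thresholds, list length and start-site settings, and 1 to 13 with each library left out in turn. The count of members absent from both ACSS2i libraries, 0 with 500 bp and 2000 bp windows, with summits and at equal list length, was 9 at the stricter threshold, 1 (EIF3K) with the transcription start end only and 1 at any RefSeq start site (a setting chosen after seeing the data), and it ranged from 0 to 13 with each library left out. Without ACSS2i replicate 1 it was 1 and without ACSS2i replicate 2 it was 13. The count in all 4 libraries (31) was 19 at the stricter threshold, which keeps fewer peaks, 23 to 31 under the other settings, and 31 to 44 with each library left out. No member was gained under any setting. The difference of median percentiles, 28.3, was 0.317 at equal list length and turned to -0.605 when ranked among genes in all 4 libraries, a ranking chosen after seeing the data; both settings give every library the same number of peaks or genes. The difference of median folds, 3.54, ranged from 2.20 to 4.88 with each library left out, and DMSO replicate 1 or 2 set these ends. The share of all genes absent from both ACSS2i libraries was 18.9% and 11.6% when weighted by the members' DMSO quartiles. With the replicate number as a block the difference in members was 7 and that of percentiles 28.3 (exact p = 0.5, the smallest that 2 pairs allow). The deviations of same-numbered libraries correlated at 0.0266 over 6074 genes. The labels give only a replicate number, and this value cannot show whether same-numbered libraries were prepared together. Unknown read depth and 2 libraries a group limit every comparison.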
